A study of Mus musculus with 6 samples.

Results

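The serpins are the 44 genes, of 17854 in the deposited table, whose symbol is Serpin followed by a clade letter from a to i and a number. Single members were chosen by symbol, with no measured value, but the family as a whole was selected on fold changes of this same comparison, so the folds and calls below describe the members and serve as no independent support. The libraries were 3 of Tomato+ cells derived from injected MSCs (labelled Inject Prrx) and 3 of endogenous articular Tomato+ chondrocytes (labelled Native Prrx), all from male C57BL/6 mice and all labelled as chondrocyte. For the first group, Prrx1-lineage MSCs of inguinal white adipose tissue from Prrx1-Cre; R26tdTomato mice were put into the knee of C57BL/6 mice 4 weeks after transection of the anterior cruciate ligament at 8 weeks of age, and Tomato+ cells were later sorted from the repaired cartilage. The second group came from Prrx1-Cre; R26tdTomato mice matched for age and sex, for which no injection is described, so that host, injection, injury and cell origin cannot be told apart in this comparison. Tomato in either group marks any descendant of a cell that once expressed Prrx1, a gene of limb mesenchyme, and does not itself identify a chondrocyte. The methods give 3 mice for each sample and do not say whether each library was 1 mouse, so p-values measure only the spread between these libraries.

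Serpins are a superfamily named for serine protease inhibitors. An inhibitory serpin offers a protease an exposed reactive centre loop as bait, and cleavage of that loop springs the serpin into a new fold that traps the protease. Clade A holds mostly secreted antitrypsin- and antichymotrypsin-like proteins, and clade B mostly intracellular inhibitors. The remaining clades include inhibitors of plasminogen activators and of complement as well as members that inhibit no protease, such as the collagen chaperone Serpinh1.

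Serpin transcripts were a larger part of the endogenous libraries than of the MSC-derived ones. They took between 0.156 and 0.157% of all expected counts in the MSC-derived libraries, against 0.852, 0.916 and 0.919% in the endogenous ones, and on the TPM scale (transcript shares corrected for length, set to the same total in every library) they summed to 1204 to 1210 against 9160.3 to 9605.7. Of the 44 members, 27 passed edgeR's expression filter. At an adjusted p of 0.05 in edgeR's quasi-likelihood test, 18 were lower and 5 higher in the MSC-derived cells, while 4 were not called. Across the 14289 genes tested, 61.6% were called, 30.3% lower and 31.3% higher, and the median log2 fold change was 0.05 against -2.64 for the serpins tested. The 17 members that did not pass had at most 17 counts in any library. Copies of the same gene group are separate rows in these counts and in the median.

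The direction differed by clade. All 12 clade A members tested were lower, with log2 fold changes from -9.12 to -1.24, and 6 more were too low to test. Except for Serpina12, those tested are Serpina1 or Serpina3 copies, described below. Reads were divided among many of these copies, so they are not separate observations. The 2 copy sums gave -6.44 and -2.57. In clade B, 5 of 8 tested members were higher, 0 were lower and 3 were not called. Of the 7 members tested in the remaining clades, 6 were lower and 0 higher. Clade B made up 50.03 to 51.7% of the summed serpin TPM in the MSC-derived libraries but 2.53 to 2.67% in the endogenous ones.

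**Figure D1:**
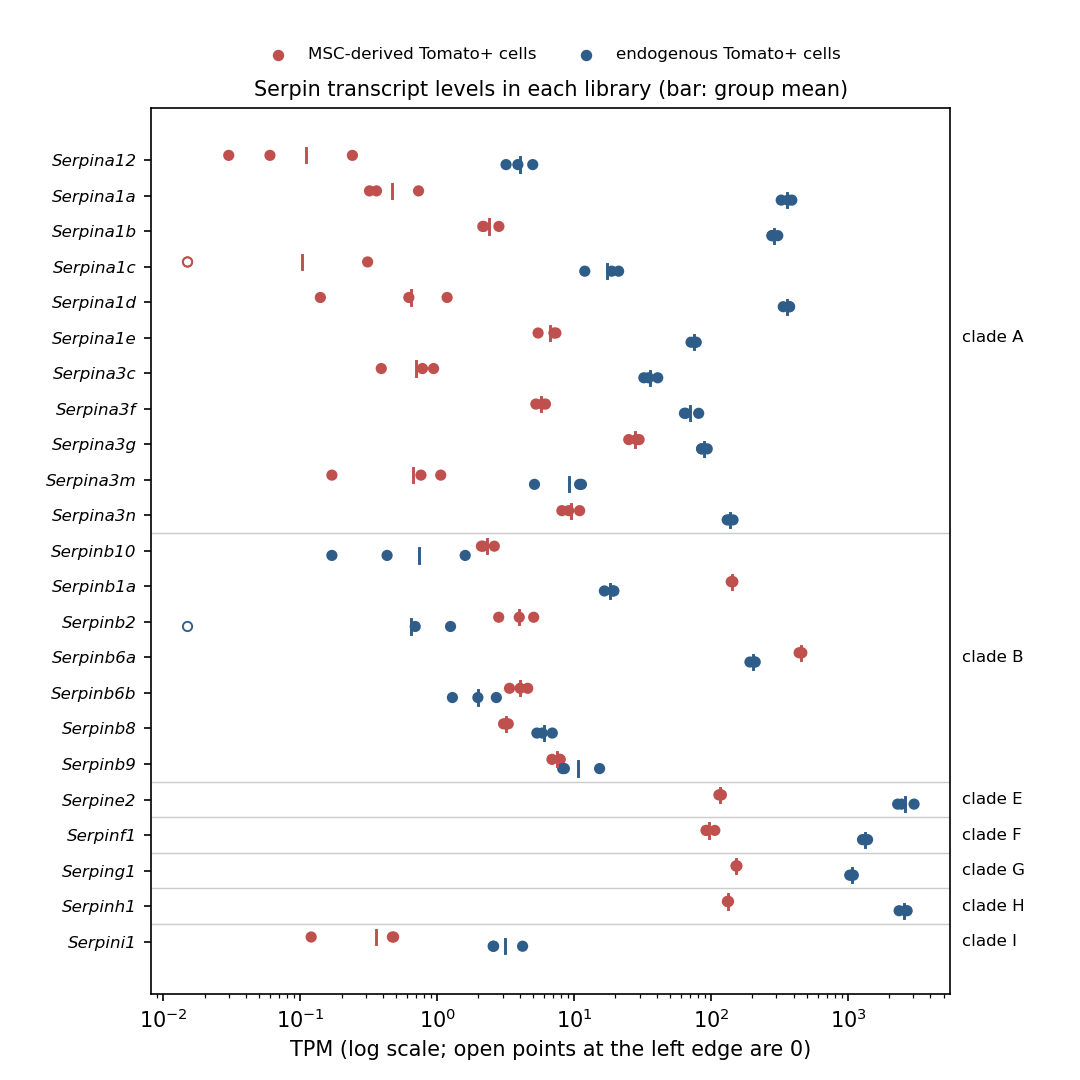
TPM on a log axis of 23 serpins with at least 100 counts in any library, 1 point per library (red, MSC-derived; blue, endogenous), with a bar at the mean of 3 libraries and open points for values of 0. The red points lie left of the blue in all 11 clade A genes shown, and right of them in 5 of the 7 clade B genes. In CPM, which is not plotted, the groups of these genes were also apart, as held for 73.3% of all genes tested.

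Markers of several cell types moved between the groups beside the serpins. Each of the 8 chondrocyte markers and 6 osteoblast markers was lower in the MSC-derived libraries, with summed TPM of 431 to 444 against 22553 to 24179.6 for chondrocytes and 565 to 586 against 53268 to 68771 for osteoblasts. Conversely, 6 of 6 leukocyte, 8 of 8 neutrophil and 8 of 8 macrophage markers were higher, with neutrophil markers at 145610 to 154407 TPM against 7930 to 11236 and macrophage markers at 10063 to 10332 against 41.7 to 57.2. Also higher were 7 of 7 erythroid, 4 of 5 tested T and NK cell, 4 of 5 B and plasma cell and 3 of 5 endothelial markers. Of the T and NK cell markers, Cd3e, Cd3g and Cd8a had at most 89 counts in any library. Klrb1c was not called, and Ncr1 and Prf1 were not tested. Of 7 megakaryocyte markers, 1 was higher, 1 was lower and 5 were not called. Among tested skeletal muscle and keratinocyte markers, 0 were called. The part of these cell types in the serpin values was not tested, and in bulk RNA fewer cells of a type and less RNA per cell cannot be told apart. Endogenous replicate 1 stood apart from replicates 2 and 3, with a chi-square per gene of 47.6 and 50.1 against 4.89 between the other two, while pairs of MSC-derived libraries gave 3.61 to 3.97. Total expected counts were 22060628 to 24881796 per library, so that 3 counts, taken as the lowest level this depth can show, correspond to 0.121 to 0.136 CPM, counts scaled to the library total (counting error only).

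Fold changes were taken from counts, and TPM ratios lie below them: over 14226 genes the log2 ratio of mean TPM was lower than edgeR's log2 fold change by a median of -0.44, and by -0.44 over the serpins tested. Where a TPM difference is small, the count-based fold is the value compared here.

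The most abundant serpins of the endogenous cells were Serpinh1 and Serpine2, followed by Serpinf1 and Serping1. These 4 genes made up 80.6 to 81.7% of serpin TPM in the endogenous libraries and 40.9 to 42.3% in the MSC-derived ones. Serpinh1, known as HSP47, resides in the endoplasmic reticulum and assists the folding of procollagen. Its TPM was 134, 132 and 133 in MSC-derived replicates 1 to 3 and 2361, 2701 and 2612 in the endogenous replicates, a log2 fold change of -3.84 (SE 0.12) or 14.3-fold. All endogenous libraries lay far above all MSC-derived ones, and the groups did not overlap for 73.3% of all genes tested.

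The collagens that Serpinh1 serves as a chaperone were lower too, 6 of 6 on the list. Col1a1 had 331, 334 and 339 TPM in the MSC-derived libraries against 23514, 19584 and 18039.7 in the endogenous ones, a log2 fold change of -5.48 (SE 0.07). Col2a1, the main collagen of hyaline cartilage, fell by 6.30 on the log2 scale (SE 0.06). Col3a1, the fibrillar collagen of soft connective tissue, had the smallest difference of the list at -1.69 (SE 0.06), also smaller than that of Serpinh1. The fold of Serpinh1 thus lay between that of Col3a1 and those of the other 5 collagens.

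Serpine2, protease nexin 1, is an inhibitor of thrombin and of the plasminogen activators that stays close to the cell surface. Its TPM was 117, 114 and 119 in the MSC-derived libraries and 3036, 2304 and 2459 in the endogenous ones. The log2 fold change was -4.03 (SE 0.08), 16.3-fold, the largest of any serpin outside clade A. The groups did not overlap, which held for 73.3% of all genes tested. Serpini1, neuroserpin, which inhibits tissue plasminogen activator, was at low level, with 28, 7 and 26 counts against 149, 105 and 109 and a log2 fold change of -2.64 (SE 0.55).

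Of 5 tested genes of plasminogen activation, 1 was higher and 1 was lower. Plat, tissue plasminogen activator, had 7.16, 7.67 and 6.79 TPM in the MSC-derived cells against 59.8, 83.1 and 76.0 (log2 fold change -2.92, SE 0.19). Plaur, the urokinase receptor, had 423, 413 and 395 TPM against 216, 179 and 196 (log2 fold change 1.504, SE 0.07). Plau, urokinase itself, was low in both groups at 2.40 to 3.36 and 2.60 to 3.94 TPM and was not called, nor was Lrp1, the receptor that clears serpin-protease complexes, at 53.9 to 56.7 and 65.1 to 77.5 TPM, nor Vtn. The sole activator gene called was thus lower together with Serpine2 and Serpini1, and the receptor was higher.

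Serpinf1, PEDF, is a secreted protein that binds collagen, restrains vessel growth and inhibits no protease. It had 91.9, 92.4 and 106 TPM in the MSC-derived libraries and 1317, 1389 and 1276 in the endogenous ones (log2 fold change -3.34, SE 0.11, 10.1-fold). Serpinf2, the plasmin inhibitor antiplasmin, had 0, 0 and 10 counts against 0, 15 and 19 and was not called, although it was without endogenous replicate 1, when clade F had 2 members lower.

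Serping1, C1 inhibitor, blocks the first proteases of the classical complement pathway and the contact proteases. With 153, 154 and 152 TPM it was the second most abundant serpin of the MSC-derived cells, but it reached 1029, 1093 and 1059 TPM in the endogenous ones (log2 fold change -2.36, SE 0.09, 5.12-fold). Both classical pathway proteases that could be tested were lower. C1ra had 24.3, 24.3 and 22.5 TPM against 116, 117 and 114 (log2 fold change -1.85, SE 0.09), and C1s1 had 14.4, 15.2 and 14.5 against 103, 80.8 and 78.1 (-2.12, SE 0.09). Masp1 of the lectin pathway was not called, and 2 of 3 tested complement proteases were lower.

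**Figure D2:**
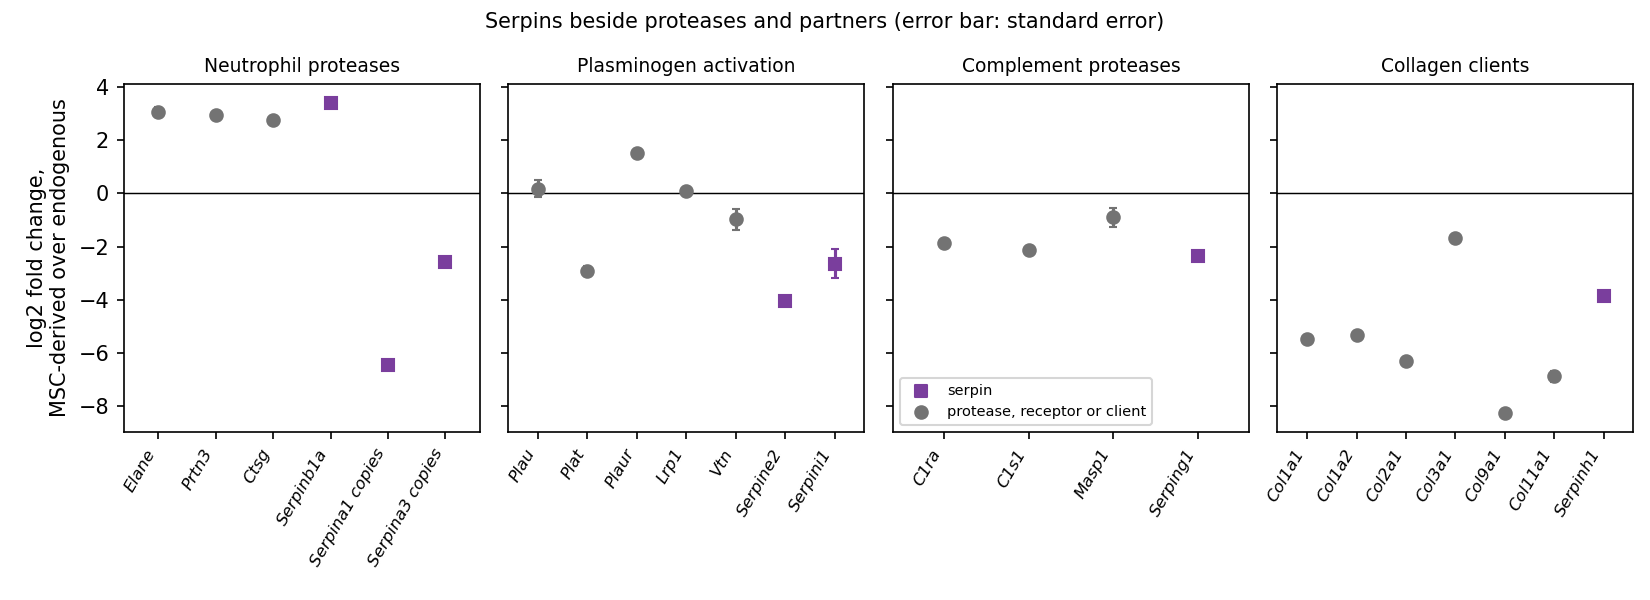
Log2 fold change (MSC-derived over endogenous, with standard errors) of serpins as squares and of proteases, receptors or collagen clients as circles, in 4 functional groups. Serpinb1a lies above 0 with Elane, Prtn3 and Ctsg while the Serpina1 and Serpina3 sums lie below 0, and Serping1 and Serpinh1 lie below 0 with all their partners.

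Serpina1 genes encode alpha-1-antitrypsin, the chief circulating inhibitor of neutrophil elastase, made mostly by liver. Mice carry several copies, and the table holds 5, Serpina1a to Serpina1e, whose coding sequences are 96.3 to 98.5% identical in pairs (GENCODE, GRCm38). Between 19.1% (Serpina1e) and 61.8% (Serpina1c) of 100-base stretches of a copy's coding sequence occur unchanged in another copy. RSEM divided reads among them: all 5 have fractional expected counts, as do Serpina3f, Serpina3g, Serpina3i, Serpina3k, Serpina3m, Serpina3n and Serpinb6a, whereas the other 32 members are whole in every library (to within 1e-06). The level of a single copy is therefore less certain than that of the sum. The reactive centre loop, which sets the choice of target, is shown to tell the copies apart and is given here as coding bases 1069 to 1152 of each, 84 bases on the minus strand of GRCm38 with Serpina1a at chr12:103853765-103853848, Serpina1b at chr12:103728332-103728415, Serpina1c at chr12:103895102-103895185, Serpina1d at chr12:103763770-103763853 and Serpina1e at chr12:103947108-103947191, each within 1 coding exon. Capitals mark bases that differ from Serpina1a.
Serpina1a: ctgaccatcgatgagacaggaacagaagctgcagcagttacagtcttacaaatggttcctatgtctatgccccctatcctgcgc
Serpina1b: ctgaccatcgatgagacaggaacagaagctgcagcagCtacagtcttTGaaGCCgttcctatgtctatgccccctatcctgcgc
Serpina1c: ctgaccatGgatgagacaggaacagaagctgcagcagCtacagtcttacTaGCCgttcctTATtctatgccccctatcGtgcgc
Serpina1d: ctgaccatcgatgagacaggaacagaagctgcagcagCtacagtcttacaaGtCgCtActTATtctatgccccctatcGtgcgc
Serpina1e: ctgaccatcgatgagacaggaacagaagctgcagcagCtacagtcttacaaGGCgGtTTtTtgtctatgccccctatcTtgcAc
Serpina1b differs from Serpina1a at 6 of these bases, Serpina1d at 9, and Serpina1c and Serpina1e at 10 each.

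Summed over the 5 copies, Serpina1 had 257, 260 and 194 expected counts in the MSC-derived libraries and 18595, 18709 and 21299 in the endogenous ones. The log2 fold change of the sum was -6.44 (SE 0.11), 86.9-fold. By TPM the sum was 8.85 to 11.2 against 1028 to 1161, so that in the endogenous cells it ranked with Serping1. No library of one group came near the other, and the groups did not overlap for 73.3% of all genes tested.

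The single copies differed in how far they fell. Serpina1a had 0.36, 0.73 and 0.32 TPM against 389, 325 and 365 (log2 fold change -9.12, SE 0.21), and Serpina1d had 0.14, 1.18 and 0.62 against 373, 336 and 374 (-8.67, SE 0.38). Serpina1b had 2.82, 2.18 and 2.15 TPM against 307, 279 and 278 (-6.47, SE 0.13). Without MSC-derived replicate 2 the value for Serpina1d was -9.42. Serpina1c was listed at 0, 0 and 7 counts against 312, 202 and 332, so its fitted fold rests on MSC-derived replicate 3. Serpina1e, with 7.35, 7.11 and 5.45 TPM against 71.3, 75.7 and 77.9, had the smallest difference of the 5 (-3.06, SE 0.17, 8.36-fold). The mix of copies therefore differed as well: Serpina1e held 60.01 to 67.4% of the Serpina1 sum in the MSC-derived libraries and 5.45 to 6.55% in the endogenous ones, whereas Serpina1a held 4.28 to 8.11% against 36.4 to 38.3%. Serpina1b held a similar share in both groups, 19.7 to 26.95% and 23.1 to 25.2%.

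**Figure D3:**
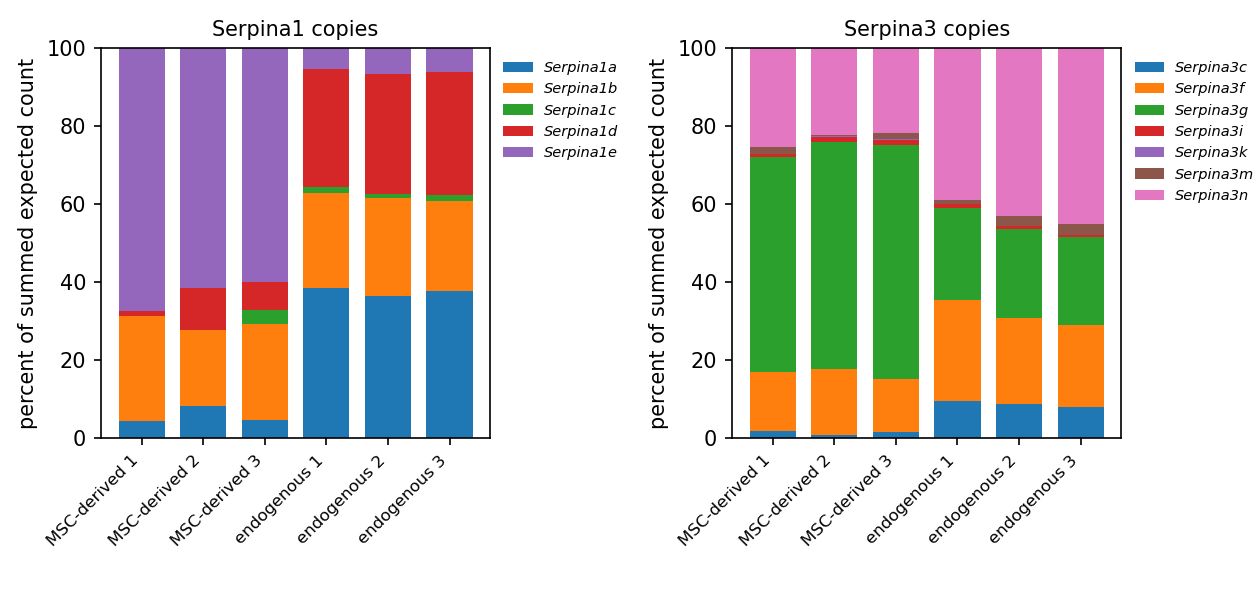
Stacked bars of each copy's percent of the summed expected count of the Serpina1 copies (left) and Serpina3 copies (right) in each of the 6 libraries. Serpina1e and Serpina3g fill over 55% of their bars in the MSC-derived libraries, and under 24% in the endogenous ones.

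The Serpina1 promoters show how alike the copies are upstream. RefSeq sequences (GRCm38.p6) covering 250 bases before to 50 after the annotated start were matched for 36 of the 44 members. The letters GTTAAT form part of the site of the liver factor HNF1. They occur on either strand in 7.10% of all 32851 promoters and in 8 of the 42 promoters of these 36 serpins. Among the 8 are promoters of all 5 Serpina1 copies, which are alike in sequence. The letters CCAAT occur in 37.4% of all promoters and also in all 5 copies, where 1 match on the other strand shares a base with GTTAAT. The 250 bases before the start of the copies with the largest and smallest fold difference are given, with GTTAAT in capitals, on the minus strand at chr12:103863620-103863869 for Serpina1a and chr12:103956898-103957147 for Serpina1e.
Serpina1a: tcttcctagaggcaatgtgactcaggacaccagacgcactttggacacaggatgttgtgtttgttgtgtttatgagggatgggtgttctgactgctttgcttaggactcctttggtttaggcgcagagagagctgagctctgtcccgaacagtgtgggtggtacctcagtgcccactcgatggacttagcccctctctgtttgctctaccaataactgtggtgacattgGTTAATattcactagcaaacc
Serpina1e: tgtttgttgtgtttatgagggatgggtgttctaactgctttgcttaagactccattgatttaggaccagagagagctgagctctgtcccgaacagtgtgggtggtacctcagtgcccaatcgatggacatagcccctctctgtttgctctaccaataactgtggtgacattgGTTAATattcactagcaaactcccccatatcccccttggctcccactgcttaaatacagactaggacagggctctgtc
GTTAAT begins 21 bases before the annotated start of Serpina1a and 78 before that of Serpina1e, whose start is annotated further downstream in similar sequence. The full 300-base windows of these 2 copies, with the 50 bases after the start that are not printed, were also aligned. Where they could be aligned, over 243 bases, they were 95.9% identical. A match of letters describes the window and is no measure of binding, and factor levels were not examined.

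Hepatocyte markers, given because Serpina1 is best known from liver, were low in both groups. Alb, serum albumin, had 5 to 13 counts in every library, and the 9 markers in the table summed to 2.33 to 3.12 TPM in the MSC-derived and 11.7 to 21.1 TPM in the endogenous libraries. Of the 4 that could be tested, 0 were higher and 2 were lower. Fgg had 0 counts in each MSC-derived library against 186, 37 and 43. Ahsg had 1 count in each against 110, 123 and 149 (log2 fold change -6.89, SE 0.47). The Serpina1 sum of the endogenous libraries thus stood at 1028 to 1161 TPM where Alb stood at 0.19 to 0.58.

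The Serpina3 genes, related to antichymotrypsin, which inhibits cathepsin G and chymotrypsin-like proteases, form a second expanded group with 7 copies in the table. Their coding sequences are less alike, 81.2 to 91.99% identical in pairs, and at most 8.23% of a copy's 100-base stretches recur in another. The loop region of Serpina3n and Serpina3g, the copies with the largest shares, shows it. The 84 bases are on the plus strand of GRCm38, at chr12:104413439-104413522 and chr12:104241063-104241146, with capitals where Serpina3g differs from Serpina3n, at 29 bases.
Serpina3n: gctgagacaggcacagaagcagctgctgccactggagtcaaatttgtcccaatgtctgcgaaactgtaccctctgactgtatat
Serpina3g: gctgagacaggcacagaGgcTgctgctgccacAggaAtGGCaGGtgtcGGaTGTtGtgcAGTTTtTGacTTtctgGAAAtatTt

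Summed, the Serpina3 copies had 1648, 1328 and 1423 expected counts in the MSC-derived libraries against 7680, 8280 and 8794 in the endogenous ones, a log2 fold change of -2.57 (SE 0.09) or 5.93-fold. Serpina3n, an acute-phase inhibitor, had 10.96, 8.13 and 9.12 TPM against 131, 136 and 145 (-3.44, SE 0.15, 10.8-fold). Serpina3g had the smallest difference in clade A, with 28.5, 25.03 and 29.8 TPM against 93.7, 85.5 and 85.1 (-1.24, SE 0.10, 2.36-fold). It is a copy known from blood cells and held 55.2 to 60.1% of the Serpina3 sum in the MSC-derived libraries against 22.5 to 23.6% in the endogenous ones. Serpina3n held 21.9 to 25.4% against 39.0 to 45.2%.

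The other Serpina3 copies were lower as well, apart from Serpina3k, which was not tested with at most 3 counts. Serpina3f had 6.17, 5.85 and 5.25 TPM against 81.1, 65.1 and 63.9 (-3.16, SE 0.11), and Serpina3c had 0.94, 0.39 and 0.78 against 40.8, 35.0 and 32.3 (-5.23, SE 0.29). Serpina3m varied more, with 1.06, 0.17 and 0.76 TPM against 5.13, 10.96 and 11.3 (-3.37, SE 0.70), and Serpina3i, at 11 to 20 counts against 53 to 63, gave -1.93 (SE 0.46). In each of these copies the groups did not overlap, as was the case for 73.3% of all genes tested.

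Serpina12, vaspin, an adipokine, had 4, 2 and 15 counts in the MSC-derived libraries against 207, 185 and 159 in the endogenous ones (log2 fold change -4.74, SE 0.68). Without MSC-derived replicate 3 the log2 fold change was -5.99, so this library sets the size of the difference. Adipocyte markers were likewise at or near 0 in the MSC-derived libraries, with a sum of 0.81 to 2.55 TPM against 279 to 297, of which Adipoq, adiponectin, made up 255 to 278. The 3 that could be tested were lower. Plin1 and Lep, with at most 18 counts in any library of either group, were not tested. The part of these markers in the Serpina12 values was not tested. The remaining clade A genes, Serpina5, Serpina6, Serpina9, Serpina10 and Serpina11, had at most 17 counts.

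In this fit, members called higher were found only in clade B. Serpinb6a, an intracellular inhibitor of trypsin-like proteases and of cathepsin G, was the most abundant serpin of the MSC-derived cells, with 452, 460 and 440 TPM against 210, 192 and 207 (log2 fold change 1.60, SE 0.07, 3.02-fold). It made up 36.4 to 38.2% of serpin TPM in the MSC-derived libraries and 2.098 to 2.25% in the endogenous ones. Serpinb1a, an inhibitor of the neutrophil serine proteases carried in the cytosol of myeloid cells, had the largest log2 fold change among the serpins called higher in this fit, with 144, 140 and 144 TPM against 16.6, 19.1 and 19.5 (3.39, SE 0.13, 10.5-fold). The Serpinb6 sum gave 1.59 (SE 0.07) and the Serpinb1 sum 3.39 (SE 0.13). These sums could hardly differ from the single genes, since Serpinb6a held 97.9 to 99.1% of its sum and Serpinb1a 99.6 to 100%. Serpinb6a has fractional counts while the other Serpinb6 copies are whole, so the sum does not settle how its reads were divided.

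The proteases that Serpinb1a blocks rose beside it. Elane, neutrophil elastase, had 1074, 1005 and 995 TPM in the MSC-derived libraries against 134, 179 and 181 (log2 fold change 3.06, SE 0.17). Prtn3, proteinase 3, gave 2.95 (SE 0.12) and Ctsg, cathepsin G, gave 2.77 (SE 0.09), so 3 of 3 were higher, as were 8 of 8 neutrophil markers, with a median log2 fold change of 4.03. Relative to the summed TPM of these 3 proteases, Serpinb1a was 0.0862 to 0.0928 in the MSC-derived and 0.0667 to 0.0706 in the endogenous libraries, while the Serpina1 sum was 0.00572 to 0.00708 and 3.59 to 4.93. These are ratios of transcript levels and not of protein. The Serpina1 copies differ in the loop that sets the choice of target. Which of them block these 3 proteases was not tested, so the sum is no measure of elastase inhibitor.

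Less abundant clade B genes were less certain. Serpinb6b had 165, 122 and 136 counts against 30, 67 and 51 (log2 fold change 1.44, SE 0.37, edgeR adjusted p = 0.0113), and the adjusted p was 0.0528 without MSC-derived replicate 1. Serpinb2, PAI-2, an inhibitor of urokinase found in activated macrophages, had 180, 135 and 91 counts against 0, 17 and 32 (2.97, SE 0.98, edgeR adjusted p = 0.0314). Serpinb10 had 121, 153 and 109 counts against 47, 15 and 6 (2.40, SE 0.70, edgeR adjusted p = 0.0194), with its highest endogenous value in replicate 1. For both, edgeR's call was lost without any 1 of the 3 MSC-derived libraries or without endogenous replicate 2, with an adjusted p of 0.114, 0.0926, 0.0708 and 0.0882 for Serpinb2 and 0.0529, 0.0708, 0.0529 and 0.0632 for Serpinb10. Without endogenous replicate 1 the log2 fold change was 3.47 for Serpinb10 and 2.34 for Serpinb2, and without endogenous replicate 3 it was 3.86 for Serpinb2. The clade B count of 5 higher was 2 without MSC-derived replicate 1 and 3 without MSC-derived replicate 3.

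The clade B genes that were not called include the known guard against granzyme B. Serpinb9, which protects lymphocytes and other cells from that protease, had 377, 364 and 310 counts against 432, 274 and 302 (log2 fold change -0.02, SE 0.21), and the groups overlapped in CPM. Serpinb8, which inhibits furin, had 149, 161 and 124 counts against 169, 232 and 197 (-0.54, SE 0.22, edgeR adjusted p = 0.0670), and edgeR called it lower without endogenous replicate 1 at an adjusted p of 0.00219. Serpinb7 had at most 22 counts and overlapping groups. Of the granzymes, Gzma was higher (1.90, SE 0.63) at 1.60 to 3.95 TPM against 0.60 to 1.51, and Gzmb was not called. Among genes not tested, Serpinb1c had 17, 6 and 15 counts and Serpinb12 had 3, 5 and 6 counts in the MSC-derived libraries, and both were listed at 0 in each endogenous library. Serpinb1b, Serpinb5, Serpinb6c, Serpinb6e and Serpinb9b had at most 9 counts.

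**Figure D4:**
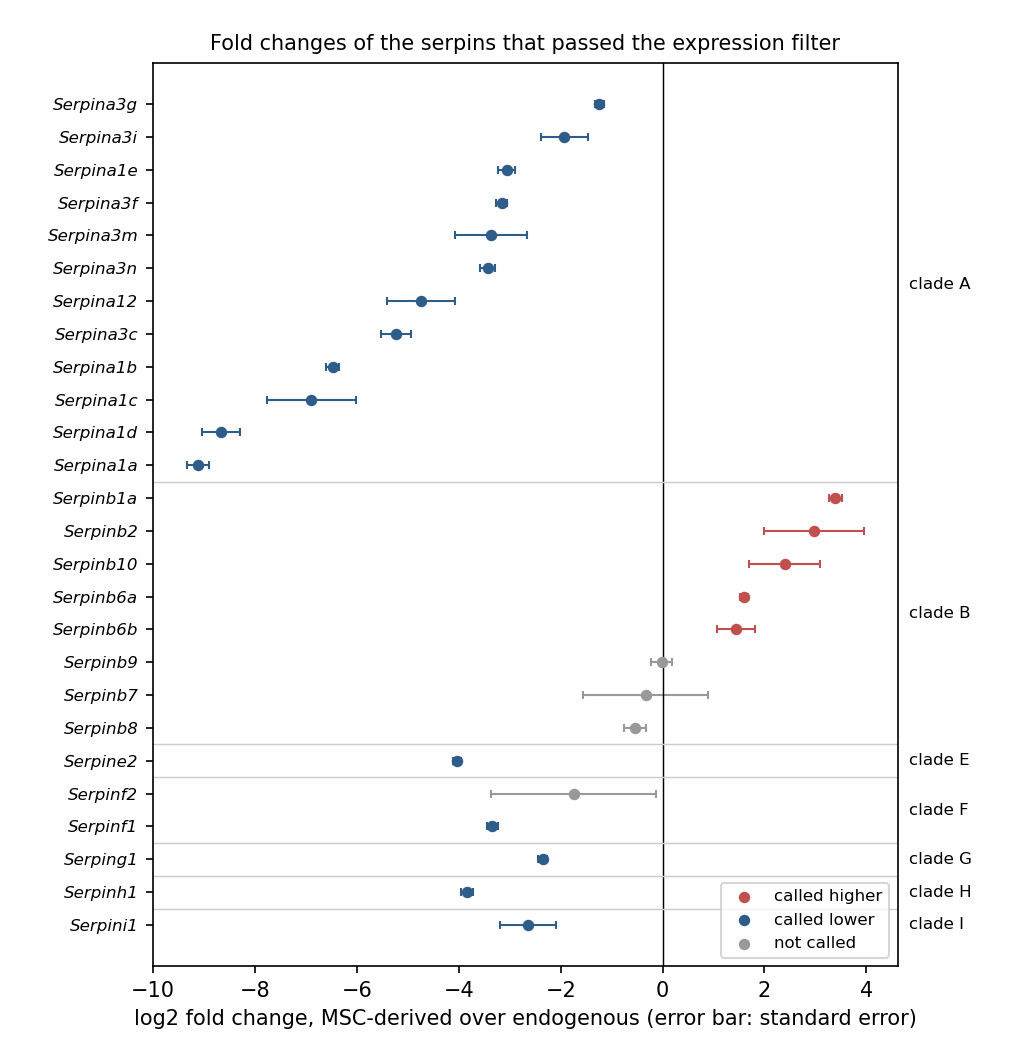
Log2 fold change (MSC-derived over endogenous) of 26 of the 27 serpins tested, by clade, with standard errors; red marks genes called higher, blue genes called lower and grey genes not called. Clade A spans -9.12 to -1.24 and clade B -0.54 to 3.39.

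Genomic position goes with the clades. All 18 clade A members lie on chromosome 12, while the clade B members on chromosome 13 include Serpinb1a and Serpinb6a, which were higher, and Serpinb9, which was not called. Those on chromosome 1 include Serpinb2 and Serpinb10, which were higher, and Serpinb7 and Serpinb8, which were not called. Genes called and not called thus lay in the same clade B clusters.

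The circulating inhibitors of clotting were close to undetected. Serpinc1, antithrombin, had at most 6 counts and Serpind1, heparin cofactor II, at most 15. Of the members not yet described, Serpine3 had at most 4 counts and Serpini2 at most 15. Of the clotting and kinin genes on the list, 3 of 9 could be tested: F10 was higher (3.16, SE 0.33), Thbd, thrombomodulin, was lower (-1.66, SE 0.09) and F7 was not called. Serpinc1 and Serpind1 did not pass the expression filter, so their difference was not tested in this fit. In the MSC-derived against the endogenous libraries, Serpinc1 had 1, 0 and 0 against 4, 5 and 6 counts. Serpind1 had 5, 0 and 1 against 8, 15 and 8.

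Protease inhibitors outside the serpins did not all share the serpins' direction. Of 29 tested, 17 were lower and 10 higher, with a median log2 fold change of -1.45. Across all 14289 genes tested, 30.3% were called lower and 31.3% higher, with a median of 0.05. Lower were Cst3, cystatin C, which had the highest endogenous level of the list at 12015 to 16017.5 TPM against 3247 to 3360 (-1.72, SE 0.15), the Timp genes, which inhibit matrix metalloproteinases (Timp3 -3.27, Timp4 -1.96, Timp1 -1.45 and Timp2 -0.24), and Reck (-2.79, SE 0.09). Higher were Slpi, a secreted inhibitor of neutrophil elastase (3.64, SE 0.09), and Wfdc17 (5.85, SE 0.42), along with Wfdc21, Cstb and the stefin genes Stfa1, Stfa2 and Stfa2l1. Of the cysteine cathepsins, Ctsb, Ctsh and Ctss were higher (3.53, 1.63 and 6.64) while Ctsk and Ctsl were not called (-0.04 and -0.14). Slpi, a non-serpin inhibitor of elastase, therefore differed in direction from the Serpina1 copies.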

How the data were processed

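RNA of 6 sorted cell samples was sequenced by BGI, and the reads were filtered, aligned and quantified with RSEM. The authors' processing notes name Bowtie2 2.2.5, RSEM 1.2.12 and the mm9 build. The study's methods name later versions of these tools beside SOAPnuke and HISAT2. The authors deposited expected counts, not normalized, together with FPKM and TPM for each gene and library. Of the columns, 18 were used, 8 of group averages and 6 of scaled counts were not, and 0 columns of single samples were unmapped. Groups and replicate numbers came from the sample titles.

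Expected counts were rounded, which changed 20.6% of values, scaled by TMM, filtered with filterByExpr and tested without a block by glmQLFTest of edgeR 4.0.16 (R 4.3.3), with Benjamini-Hochberg adjustment over 14289 genes and a threshold of 0.05. Near-identical copies were also summed. Standard errors are the log2 fold change divided by the root of F. On simulated counts the script was tested before use. Members, lists and tests were chosen with earlier results of these data known. Values per library are given for members with at least 100 counts in any library, except 1 member that is counted but not reported here. Of the genes on protease and partner lists, those with the highest level and those that go against their list are named, and the rest were picked after their values were seen.

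Alternatives were DESeq2 1.42.0, other normalizations and filters, a replicate block, each library left out, limma 3.58.1 on log2 FPKM with a pseudocount of 1 or 0.1, a threshold of 0.001 and summed copies. Reference sequences are from GENCODE and RefSeq (GRCm38), aligned with Biopython 1.88, and no read was placed on them. Protein sequences were not used here.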

Additional observations from a re-analysis of the deposited data

How the results depend on the processing

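Of the 29 members or copy sums with at least 100 counts, 21 kept their direction and call under every alternative that gave them a value (Serpina12 and Serpina1c had none with the 10 CPM filter, which removes them), among them Serpinh1, Serpine2, Serpinf1, Serping1, Serpinb1a, Serpinb6a and the Serpina1 and Serpina3 sums. The number of serpins called higher, all in clade B, was 5 and fell to 2 with at least 10 CPM in 3 libraries and to 2 at a threshold of 0.001, and leaving out 1 library gave 2 to 6. The number called lower was 18 and became 9 with each copy family replaced by its sum, since fewer rows are then counted, and leaving out 1 library gave 18 to 20. In clade B the number called lower was 1 with DESeq2 and 1 with upper quartile normalization (Serpinb8), and 0 to 1 with 1 library left out. Clade F had 1 to 2 lower with 1 library left out. Clade I had 0 lower with the 10 CPM filter, which removes Serpini1, and 0 at 0.001. For the other inhibitor families the 10 higher and 17 lower became 6 and 10 with the 10 CPM filter and 4 and 10 at 0.001. With limma on log2(FPKM + 1), whose pseudocount shrinks the folds of low genes, the log2 fold change was -1.55 for Serpina12, -7.17 for Serpina1a, 1.62 for Serpinb2 and 1.07 for Serpinb10.

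Serpinb9, not called under any alternative, changed sign: its log2 fold change was 0.10 by library size alone, 0.0101 with the replicate block, -0.16 to 0.17 with 1 library left out (0.03 without MSC-derived replicate 3, 0.17 without endogenous replicate 1), and 0.10 and 0.11 with limma at pseudocounts of 1 and 0.1. The sum of the Serpinb9 copies gave 0.11 by library size, 0.00758 with no filter, 0.0234 with the replicate block, -0.15 to 0.18 with 1 library left out (0.05 and 0.18 without the same 2 libraries), and 0.11 and 0.13 with limma. Same-numbered libraries come from different mice, and their deviations correlated at 0.00221 to 0.0178, so the numbers do not pair them. With the replicate block 4 serpins were higher and 18 lower, since Serpinb2 was no longer called by edgeR (adjusted p = 0.0661). Library size alone moved the median log2 fold change of all genes by 0.12, and limma by 0.13 and 0.14, and the genes called higher and lower, 4468 and 4333 in the report, were 5042 and 3970, 5464 and 3955, and 5328 and 3940. The cause of these shifts was not tested.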
